A study of Mus musculus with 6 samples.

Results

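The genes described here are 38 genes of distal mouse chromosome 1 that lie around the SLAM receptor genes and the p200 interferon-inducible genes. They were chosen by position, leaving both families out, and were compared between C57B/L6 and B.D(Chr5) mice to see how far a strain difference reaches along the interval. All 38 were on the array, with 73 of its 45037 probe sets, the groups of short probes that each measure one transcript region. Of these, 55 probe sets of 32 genes were bright enough to test. The other 6 genes, Adamts4, Casq1, Kcnj10, Igsf9, Cadm3 and Rgs7, were too dim, and a further probe set shared by Pfdn2 and Klhdc9 was left out.

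RNA came from bone marrow cells sorted to remove mature blood lineages, which enriches for haematopoietic stem and progenitor cells. Each strain had 3 samples, labelled as biological replicates and hybridised to 1 array each. The C57B/L6 group carries that strain's own background. The labels name chromosome 5 in the strain name of the B.D(Chr5) group and give its genetic background as B.D, with no statement on chromosome 1. All mice were untreated adult females of 6 to 16 weeks. Whether a sample was 1 mouse or a pool is not stated, so p-values measure only the spread between these samples.

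As background, distal chromosome 1 of the mouse packs several immune gene families side by side. Low-affinity Fc receptors bind the tail of antibodies and tune myeloid and B cells, SLAM receptors are adhesion molecules of blood cells, and p200 proteins include sensors of cytosolic DNA. Inbred strains are known to carry different versions of the SLAM and Fc receptor genes. Between and beside these families lie genes with everyday roles in metabolism, protein handling and the cytoskeleton, and these make up most of the 38.

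The arrays had median signals of 65.0 to 79.5 in the arbitrary linear units of the array. The level of 27 bacterial control probe sets, taken as their 95th percentile, lay between 21.8 and 38 and served as the background. Of 8 stem and progenitor markers 6 were measured, among them Kit and Cd34 at mean signals of 4925 and 3933 in C57B/L6, and 0 of the 6 lay at or below the controls on all arrays. Markers of mature cells were not absent: of 5 measured B cell genes and 5 measured T and NK cell genes, 0 lay at or below the controls on all arrays. Among all marker lists only C1qa, of macrophages, did so. In bulk RNA, fewer cells of a type and less RNA per cell cannot be told apart.

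None of the 32 tested genes passed the test of the strain difference, but many of those in the middle of the interval had strains whose signals did not overlap. With limma and Benjamini-Hochberg adjustment over all 22518 tested probe sets, 0 of the 55 member probe sets had an adjusted p under 0.05, against 0.182% of all tested probe sets (0.0977% higher and 0.0844% lower in B.D(Chr5)). The smallest adjusted p was 0.179, for Arhgap30. At an unadjusted p under 0.05 there were 12 of 55 (21.8%), in 10 genes, against 4.75% of all. All 3 arrays of one strain lay above all 3 of the other in 17 of 55 (30.9%), in 14 genes, against 9.40% of all. Of these 17, 8 were higher and 9 lower in B.D(Chr5), against 4.16% and 5.24% of all. The median size of the difference was 0.22 over the member probe sets and 0.095 over all, on the scale of log2(signal + 16), where all differences below are B.D(Chr5) minus C57B/L6. Under each single array left out the members still had 0 calls. Centring the arrays on their medians gave 1, for Arhgap30.

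Position was read as gene order in the RefSeq annotation. Before the SLAM genes, from Fcrla to F11r, 7 of 29 member probe sets (24.1%) had strains without overlap. Among the SLAM genes, from Vangl2 to Tagln2, it was 8 of 13 (61.5%). Dusp23, the only tested member between the SLAM and p200 genes, added 1 of 1. After the p200 genes, from Fh1 to Sdccag8, it was 1 of 12 (8.33%), near the 9.40% of all tested probe sets, with 0 at an unadjusted p under 0.05. The median size of the difference was 0.22, 0.31, 0.27 and 0.11 in these stretches. With 1 array left out, overlap is rarer by construction, and 17.5% to 21.9% of all tested probe sets then had none. The counts ran from 8 to 13 before the SLAM genes (13, 12 and 11 on leaving out B.D(Chr5) replicate 2, B.D(Chr5) replicate 1 and C57B/L6 replicate 2), from 8 to 10 among them and from 1 to 3 after the p200 genes (3 without C57B/L6 replicate 1, and 2 without C57B/L6 replicate 2 or 3).

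**Figure D1:**
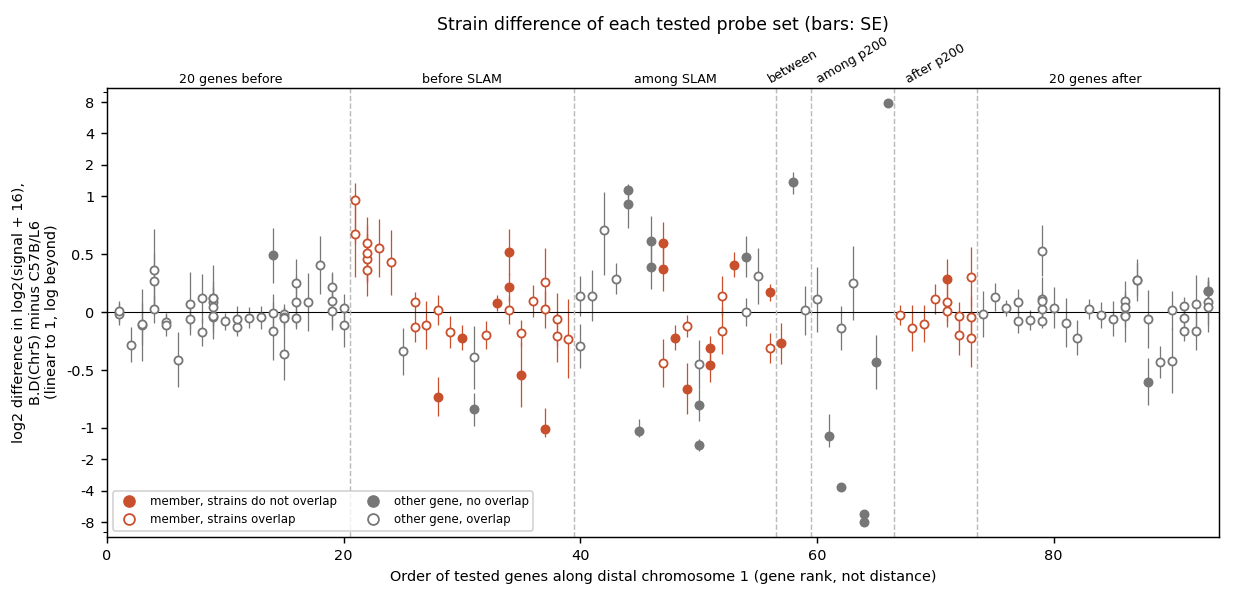
Strain difference of every tested probe set (points, with its SE) in gene order, for members and for other genes, including 20 tested genes beyond each end. Filled points mark strains that did not overlap; they are frequent from Tomm40l to the p200 genes, and number 1 of 43 in the genes before Fcrla and 4 of 37 in the genes after Sdccag8.

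Of the 21 other tested genes of the interval, 2 were called higher in B.D(Chr5) (Slamf1 and Ifi202b) and 4 lower (Cd84, Pex19, Ifi209 and Mndal). Ppox, which encodes protoporphyrinogen oxidase of haem synthesis and lies between B4galt3 and Usp21, came next. Its C57B/L6 signals were 930.4, 955 and 750.3, and its B.D(Chr5) signals were 418, 504 and 528, a log2 difference of -0.84 (SE 0.14, limma adjusted p = 0.0696). Fcer1a and Ifi213 were also uncalled and without overlap, with larger differences but larger adjusted p. Fcer1a had 1.38 (SE 0.34, limma adjusted p = 0.412) and Ifi213 had -1.20 (SE 0.32, limma adjusted p = 0.536). Just outside the interval the share of probe sets without overlap was 1 of 43 (2.33%) in the 20 tested genes before Fcrla and 4 of 37 (10.8%) in the 20 after Sdccag8.

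Counted over members and other genes together, the span from Tomm40l to Ifi202b held 32 of 61 probe sets without overlap (52.5%), in 25 of 39 tested genes. The rest of the interval held 1 of 24 (4.17%). These ends were set after the values were seen, so the contrast is a description. It also rests on overlap alone. From Fcrla to Pcp4l1, 3 of 11 member probe sets (27.3%) had an unadjusted limma p under 0.05, with a median size of 0.46. The 3 came from Fcrla and Fcgr2b alone, and the interval of the brightest Fcgr2b probe set only just excluded 0 (1.4e-05 to 0.93). From Tomm40l to Ifi202b the count was 9 of 32 (28.1%), with a median size of 0.22. Over all tested probe sets these were 4.75% and 0.095. Over the whole chromosome, cut into 31 blocks of 20 tested genes (the last of 2), the block from Ppox to Pex19 had 48.6% and that from Dcaf8 to Chml had 50%. The blocks on either side, Aldh9a1 to B4galt3 and Exo1 to Itpkb, had 8.11% and 8.33%. Across the 27 blocks without members the median was 6.67% and the highest 28.6%, in the block from Parp1 to Disp1 that lies farther along the chromosome.

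**Figure D2:**
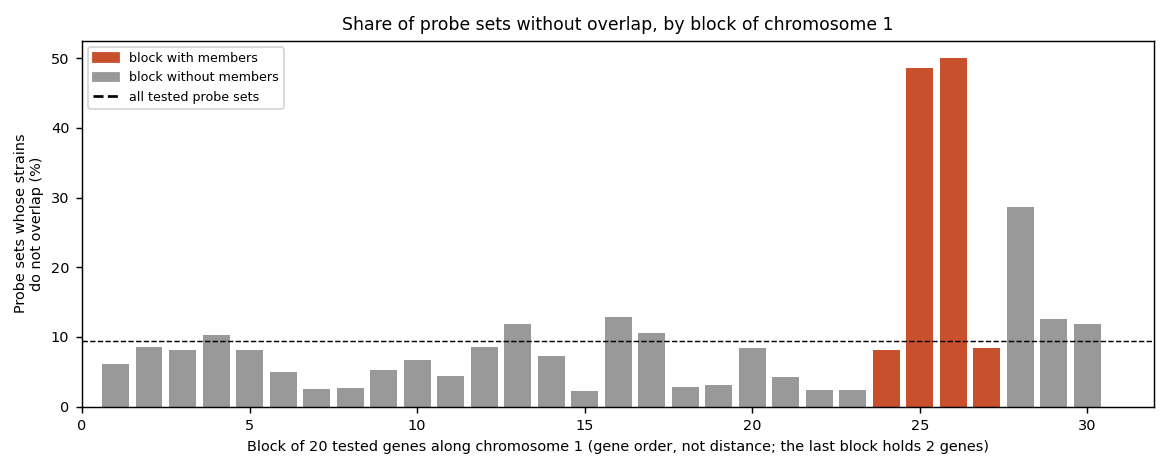
Percent of tested probe sets whose strains did not overlap, in consecutive blocks of 20 tested genes along chromosome 1, the last of 2; the dashed line is the 9.40% of all tested probe sets. The 2 tallest bars, at 48.6% and 50%, are blocks that hold members, and the next, at 28.6%, holds none.

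At the centromeric end stand the Fc receptor genes. Fcrla, an intracellular Fc receptor relative of B cells, was the first member in order. Its brighter probe set read 148, 103 and 166 in C57B/L6 and 238, 163 and 567 in B.D(Chr5), a log2 difference of 0.97 (SE 0.38, limma adjusted p = 0.974). The strains overlapped, and the B.D(Chr5) array that stood highest was replicate 3, without which the difference was 0.48. Fcgr2b encodes the inhibitory Fc receptor of B and myeloid cells. Its brightest probe set read 1115, 1561 and 1290.1 in C57B/L6 and 2105, 1262 and 2234 in B.D(Chr5), a log2 difference of 0.46 (SE 0.21). B.D(Chr5) replicates 1 and 3 were above every C57B/L6 array and replicate 2 was not. All 4 tested Fcgr2b probe sets had positive differences, from 0.36 to 0.60.

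Fcgr3 and Fcgr4 encode activating receptors of myeloid cells. Fcgr3 read 729, 824 and 684 in C57B/L6 and 1154, 587 and 1519 in B.D(Chr5), and Fcgr4 read 73.1, 97.2 and 65.4 against 96.6, 108 and 168. In both, replicate 3 of B.D(Chr5) stood highest and the strains overlapped. Their differences were 0.43 (95% confidence interval -0.19 to 1.06) and 0.55 (-0.018 to 1.12). Fcer1g, the signalling chain that these receptors share with the IgE receptor, had -0.17 (-0.48 to 0.14). Over the 5 genes, 3 of 9 probe sets had an unadjusted p under 0.05, against 4.75% of all, and 0 of 9 had strains without overlap, against 9.40% of all.

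Some marker lists of other cell types also differed between the arrays. The summed signal of 4 measured mast cell and basophil genes was 3587 to 3784 in C57B/L6, and 9323, 3371 and 6671 in B.D(Chr5) replicates 1, 2 and 3. All 4 had a higher mean in B.D(Chr5), but 1 of them, Fcer1a, is itself a gene of the interval and so no independent marker. For 5 B cell genes the sum was 1749 to 2041 in C57B/L6, and 2554, 2072 and 5325 in B.D(Chr5), again with all 5 means higher. The 4 genes of granulocyte-monocyte progenitors summed to 44731 to 52149 and to 55075 to 76351, and the 5 of maturing neutrophils to 40844 to 45419 and to 49133 to 67686. The 7 monocyte and macrophage genes summed to 8612 to 11765 and to 8896 to 13576. Other lists were lower in B.D(Chr5) replicates 1 and 3 than in replicate 2. They were stem and progenitor (28518, 33143 and 27155 in replicates 1, 2 and 3), erythroid (8078, 10616 and 7659), megakaryocyte (4671, 5428 and 3435), and stroma and endothelium (1595, 2351 and 1623). The sums for C57B/L6 were 28531 to 32623, 8069.5 to 10431, 4282 to 5357 and 476 to 1684. T and NK cell genes summed to 2894 to 4093 and to 2470.5 to 3783, with 1 of 5 means higher in B.D(Chr5). Higher means numbered 4 of 4 in granulocyte-monocyte progenitors, 5 of 5 in maturing neutrophils and 5 of 7 in monocytes and macrophages. In stroma and endothelium they numbered 5 of 5, in stem and progenitor 1 of 6, and in erythroid and megakaryocyte 0 of 4 each. Genes without overlap numbered 3 of 5 in T and NK cells (Cd3d, Cd3g and Thy1, all lower in B.D(Chr5)). They numbered 4 of 4 in granulocyte-monocyte progenitors and 5 of 5 in maturing neutrophils. They numbered 2 of 5 in B cells, 1 of 4 in mast cells and basophils, and 0 of 7 in monocytes and macrophages. The stem and progenitor list had 1 of 6, stroma and endothelium 1 of 5, erythroid 0 of 4 and megakaryocyte 0 of 4. Over all tested probe sets the share was 9.40%. The part of these lists in the Fc receptor differences was not tested.

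**Figure D3:**
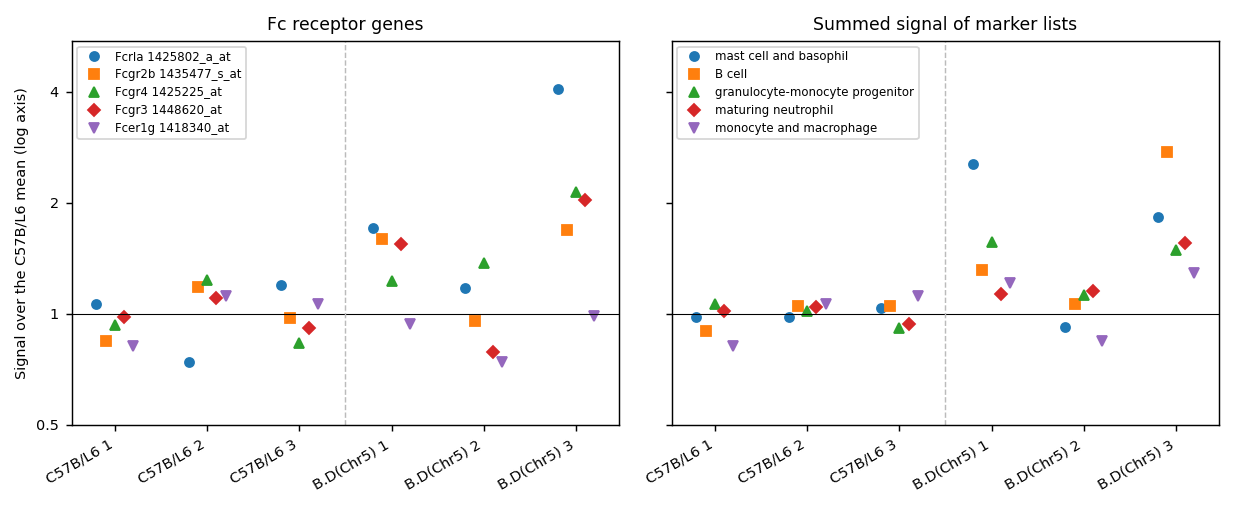
Left, signals of 5 Fc receptor genes on each array; right, summed signals of 5 marker lists; both are divided by the C57B/L6 mean, on a log axis. In B.D(Chr5), replicates 1 and 3 stand above replicate 2 for every gene drawn except Fcgr4, and for every list drawn except maturing neutrophils.

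Sdhc and Pcp4l1, next in order, had strains that overlapped. Sdhc, a membrane anchor of succinate dehydrogenase, had 0.087 (-0.11 to 0.28) on its brighter probe set. The first member without overlap was Tomm40l, which encodes a relative of the mitochondrial import channel. One of its probe sets read 994, 853 and 936 in C57B/L6 and 645, 630.4 and 413 in B.D(Chr5). Every B.D(Chr5) array lay below every C57B/L6 array, with a log2 difference of -0.73 (SE 0.17, limma adjusted p = 0.349). The dimmer probe set read 313, 312 and 338 against 290.2, 343 and 342, a difference of 0.016 (-0.29 to 0.32).

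From B4galt3 to Pfdn2, Dedd and Nit1 had the larger differences, each on its dimmest tested probe set. B4galt3, a galactosyltransferase of glycan synthesis, read 561, 638 and 569 in C57B/L6 and 498, 531 and 482 in B.D(Chr5), without overlap, at -0.22 (SE 0.11). The deubiquitinase Usp21 had -0.20 (SE 0.12) and overlapped. Ufc1, which conjugates the ubiquitin-like protein UFM1, did not overlap at 2973 to 3027 and 3079 to 3248, but its difference was 0.078 (SE 0.071). Dedd, a death effector domain protein, read 195, 148 and 122 against 253, 226 and 202 on its dimmest probe set, a difference of 0.52 (SE 0.20). A second Dedd probe set also did not overlap, at 0.22, and the brightest had 0.019. Nit1, an amidase, had -0.18 and -0.54, the dimmer probe set without overlap. Pfdn2, a subunit of the prefoldin chaperone, had 0.094 (-0.22 to 0.41).

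Arhgap30 had strains without overlap on one of its 3 probe sets. This probe set read 227, 213 and 175 in C57B/L6 and 77, 100.2 and 102 in B.D(Chr5). The strains were well apart, at 205 ± 27 and 93.2 ± 14.1 (SD, n = 3 each), with a log2 difference of -1.02 (SE 0.19, limma adjusted p = 0.179). Across the alternatives its adjusted p ran from 0.0394, with the arrays centred on their medians, to 0.772. The brightest probe set of the same gene read 1768, 2252 and 2485 against 2275, 1751 and 2604, a difference of 0.023 (-0.34 to 0.38), and the third had 0.26 (-0.39 to 0.91). Usf1, a transcription factor that binds E-boxes, had -0.063 and -0.21, both overlapping. F11r, a tight junction adhesion molecule and the last member before the SLAM genes, read 54, 89.1 and 121 against 39.1, 90.0 and 90.5, a difference of -0.23 (-1.0 to 0.54).

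Past the main group of SLAM genes comes Vangl2, a planar cell polarity protein. Its brightest probe set read 130, 178 and 190.4 in C57B/L6 and 272, 233 and 271 in B.D(Chr5), without overlap, a difference of 0.60 (SE 0.18, limma adjusted p = 0.709). A second had 0.37, also without overlap. The third went the other way and overlapped, with 190.3, 157 and 197 against 103, 124 and 168, a difference of -0.44 (SE 0.21).

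Ncstn, a subunit of gamma-secretase, and Copa, a subunit of the COPI vesicle coat, start 220 bases apart on opposite strands. Ncstn read 596, 578 and 637 in C57B/L6 and 548, 512 and 486 in B.D(Chr5), without overlap, at -0.22 (SE 0.11). The bright Copa probe set overlapped and had -0.12 (-0.33 to 0.095). The dim one read 130.4, 188 and 209 against 91.5, 96.5 and 125, without overlap, at -0.66 (SE 0.22, limma adjusted p = 0.871).

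Dcaf8, a substrate receptor of the CUL4 ubiquitin ligase, was lower in B.D(Chr5) on both of its probe sets, without overlap on either. The brighter read 1632, 1897 and 1792 in C57B/L6 and 1534, 1336 and 1406 in B.D(Chr5), a difference of -0.31 (SE 0.10, limma adjusted p = 0.746). The dimmer read 317, 341 and 333 against 241, 250.2 and 215, a difference of -0.46 (SE 0.14, limma adjusted p = 0.695). Among the members with 2 or more tested probe sets, Dcaf8 was the only one without overlap on all of them. Igsf8, an immunoglobulin superfamily partner of tetraspanins, went the other way. It read 629.8, 547 and 655 in C57B/L6 and 817, 781 and 844 in B.D(Chr5), a difference of 0.41 (SE 0.11, limma adjusted p = 0.556), on its 1 probe set.

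**Figure D4:**
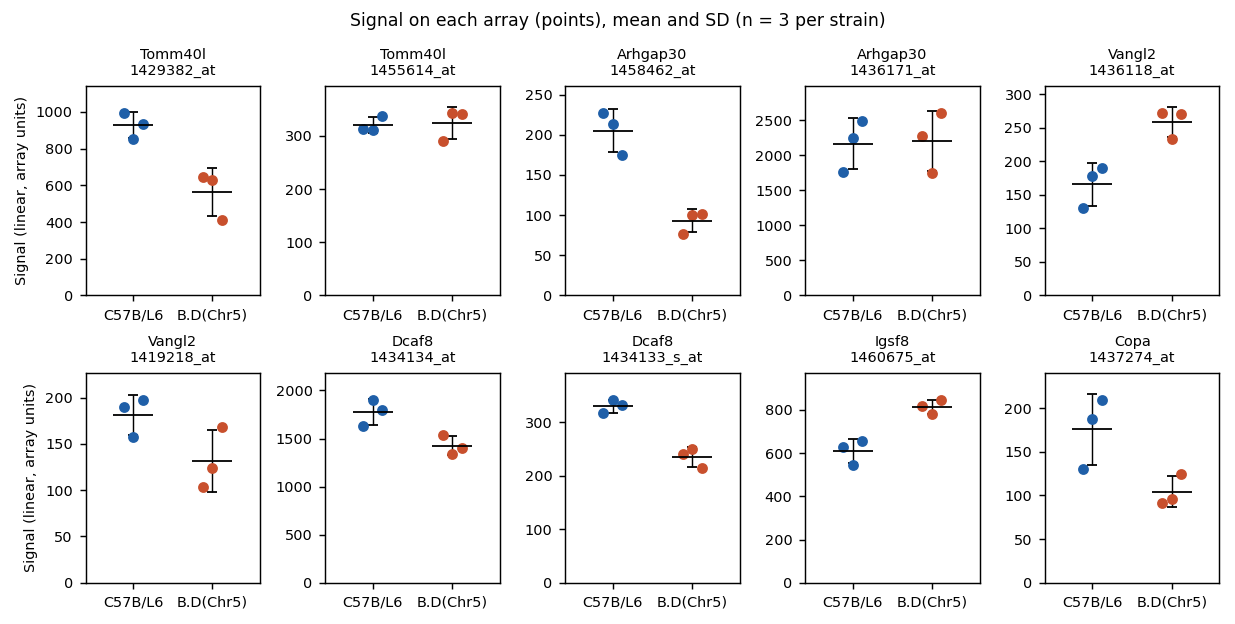
Signal on each array for 10 probe sets of 6 members, in linear array units from 0, with the mean and SD of 3 arrays per strain. Both Dcaf8 probe sets and that of Igsf8 separate the strains, whereas Tomm40l, Arhgap30 and Vangl2 each show 1 probe set that separates them and 1 that does not; the third probe sets of Arhgap30 and Vangl2 and the bright one of Copa are not drawn.

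The remaining members among the SLAM genes were Pea15a, Casq1, Kcnj10, Igsf9 and Tagln2. Pea15a, an adaptor of death and kinase signalling, had 0.14 and -0.16, both overlapping. Casq1 and Kcnj10, a calcium store protein of muscle and a potassium channel, were dim, with strain means of 46.9 and 37 for Casq1 and of 37.6 and 38.6 for Kcnj10. Igsf9, beside Slamf9, had 2 probe sets with means of 2.9 to 21.6, around the level of the controls. Tagln2, an actin-bundling protein on the other side of Igsf9, had 2 bright probe sets of opposite sign. One read 3451, 3807 and 3558 in C57B/L6 and 4142, 4154 and 3852 in B.D(Chr5), without overlap, at 0.17 (SE 0.076). The other read 1863, 2199 and 2573 against 1924, 1586 and 1804, with overlap, at -0.31 (SE 0.13).

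Dusp23, a phosphatase, was the last tested member before the p200 genes. It read 196, 171 and 174 in C57B/L6 and 124, 163 and 155 in B.D(Chr5), without overlap, a difference of -0.27 (SE 0.18), or -0.16 without B.D(Chr5) replicate 1. Cadm3, an adhesion molecule of the nervous system that borders the p200 genes, read 63.2, 42 and 88.5 against 48.1, 38 and 60.3 on its brightest probe set and overlapped. Rgs7, a regulator of G protein signalling and the next member beyond them, read 5.33, 2.62 and 24.5 against 22.4, 26.2 and 17.5, around the control level. The members next to the p200 genes on either side carried little signal in these cells.

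Beyond the p200 genes the strains overlapped in 11 of 12 member probe sets, several of them bright. Fh1, fumarate hydratase of the citric acid cycle, read 6615, 6459 and 6001 in C57B/L6 and 6296, 6875 and 5635 in B.D(Chr5), with a difference of -0.024 (95% confidence interval -0.22 to 0.17). Kmo, an enzyme of tryptophan breakdown, had -0.14 (-0.58 to 0.31), the opsin Opn3 had -0.10 (-0.46 to 0.26), and Chml, an escort protein of Rab prenylation, had 0.11 (-0.18 to 0.40). Exo1, a nuclease of mismatch repair, read 1261, 1358 and 1099.6 against 1212, 1239.5 and 1286 on its brightest probe set, at 0.012 (-0.22 to 0.24). Its dimmest was the 1 without overlap, at 145 ± 18.6 and 179.9 ± 8.98 (SD, n = 3 each) and 0.29 (-0.091 to 0.68). Cep170, of the centrosome, had -0.20 and -0.031. Sdccag8, a centrosomal protein and the last member, had -0.038, 0.30 and -0.22, its brightest probe set reading 254, 274 and 332 against 333, 227 and 280.4. The 0.30 became 0.19 when B.D(Chr5) replicate 1 was left out, and 0.51 or 0.032 when C57B/L6 replicate 2 or 3 was. These intervals leave room for differences of the size seen in Dcaf8 for some of these genes, such as Kmo, but not for Fh1 or the bright probe set of Exo1.

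By role, the 7 members in protein modification and folding had 5 of 7 tested probe sets without overlap, 4 of them lower in B.D(Chr5). These 5 came from 4 genes. Cell adhesion and polarity had 3 of 5, all 3 higher and from 2 genes, while its other 2 probe sets had negative differences. Apoptosis and signalling had 4 of 9, from 3 genes. The Fc receptors had 0 of 9, and the ion handling and metabolism group 1 of 5. Mitochondrial members, the vesicle and cytoskeleton group, and transcription and DNA repair had 20% each. The share in all tested probe sets was 9.40%, and the roles were unevenly placed along the interval.

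In some members, probe sets of the same gene gave unlike differences. Among the 16 members with 2 or more tested probe sets, the difference between each other probe set and the brightest was fitted with limma over all 8982 such pairs of the array. Of 23 member pairs 0 passed Benjamini-Hochberg adjustment, against 0.0223% of all pairs, and 6 (26.1%) had an unadjusted p under 0.05, against 3.87% of all. The gaps of these 6 were -1.04 (SE 0.23) for Vangl2, -1.04 (SE 0.26) for Arhgap30, 0.75 (SE 0.22) for Tomm40l, -0.54 (SE 0.16) for Copa, -0.48 (SE 0.16) for Tagln2 and 0.28 (SE 0.11) for Exo1. The strain differences had opposite signs in 7 of the 23, and the share over all pairs was not counted. In Sdhc (0.087 and -0.13), Pea15a (0.14 and -0.16) and Sdccag8 (-0.038 and 0.30) the signs differed, but every interval included 0. Of the 6 genes with an unadjusted p under 0.05, 5 lie from Tomm40l to Tagln2, as do most of the 16 members compared. This span was set after the values were seen. Where each probe set lies in its transcript was not used here.

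**Figure D5:**
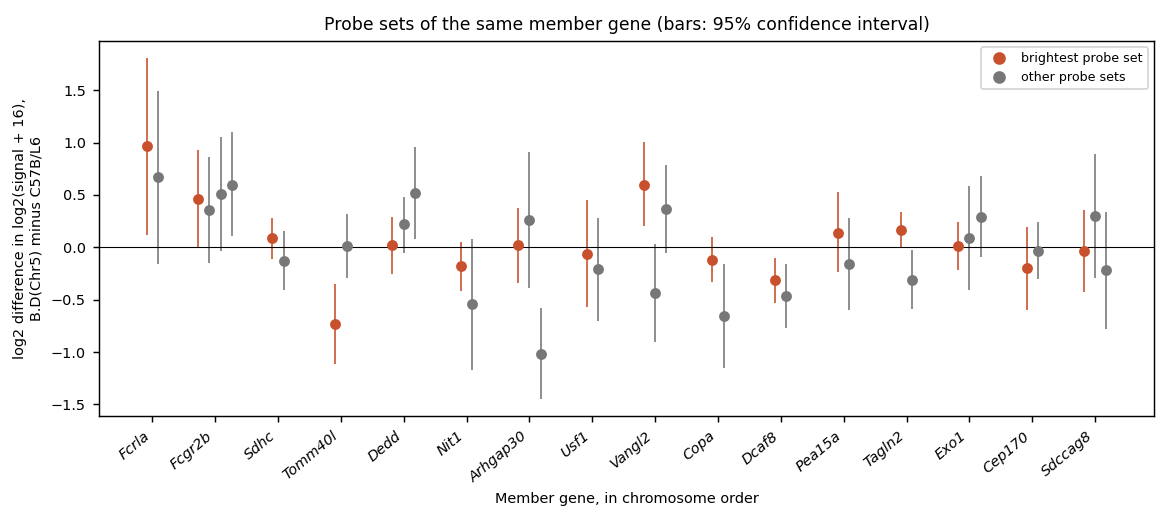
Strain difference of every tested probe set of the 16 members with at least 2, with 95% confidence intervals. The probe sets of Tomm40l, Arhgap30, Vangl2 and Tagln2 lie apart, and those of Fcrla, Fcgr2b and Dcaf8 lie on the same side of 0.

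Of the 14 members with at least 1 probe set without overlap, 5 are shown, though the brightest probe sets of Arhgap30 and Copa overlapped. Promoter sequences of the C57BL/6J reference (RefSeq, GRCm38.p6) are given for these 5, to show their annotated start regions. Each is the 250 bases before the start of transcription, 5′ to 3′ on the gene's strand, and the sequence of B.D(Chr5) was not used here. Capitals mark the GC box GGGCGG and the ETS motif CCGGAAGT, searched on both strands; none of the 5 holds both motifs.
Arhgap30, chr1:171388710-171388959, plus strand: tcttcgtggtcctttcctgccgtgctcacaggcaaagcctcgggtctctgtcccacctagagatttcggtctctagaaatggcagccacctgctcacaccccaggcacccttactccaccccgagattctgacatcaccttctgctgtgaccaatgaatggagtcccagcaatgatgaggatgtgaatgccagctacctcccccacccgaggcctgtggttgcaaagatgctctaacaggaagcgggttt
Copa, chr1:172082279-172082528, plus strand: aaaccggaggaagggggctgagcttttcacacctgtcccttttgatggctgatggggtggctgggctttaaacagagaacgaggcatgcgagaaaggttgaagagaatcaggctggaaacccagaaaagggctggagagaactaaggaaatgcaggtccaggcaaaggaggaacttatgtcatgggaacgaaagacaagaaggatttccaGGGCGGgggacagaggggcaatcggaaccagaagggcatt
Ncstn, chr1:172082750-172082999, minus strand: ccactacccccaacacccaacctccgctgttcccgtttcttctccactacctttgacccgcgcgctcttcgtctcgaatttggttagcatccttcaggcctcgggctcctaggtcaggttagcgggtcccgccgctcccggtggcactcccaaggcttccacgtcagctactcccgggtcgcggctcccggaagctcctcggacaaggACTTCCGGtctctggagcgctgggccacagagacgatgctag
Dcaf8, chr1:172147765-172148014, plus strand: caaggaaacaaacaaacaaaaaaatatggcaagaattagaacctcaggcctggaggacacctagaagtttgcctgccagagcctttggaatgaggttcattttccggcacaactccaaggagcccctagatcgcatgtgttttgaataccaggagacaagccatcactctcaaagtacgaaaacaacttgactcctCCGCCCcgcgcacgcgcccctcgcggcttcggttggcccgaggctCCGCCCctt
Igsf8, chr1:172312117-172312366, plus strand: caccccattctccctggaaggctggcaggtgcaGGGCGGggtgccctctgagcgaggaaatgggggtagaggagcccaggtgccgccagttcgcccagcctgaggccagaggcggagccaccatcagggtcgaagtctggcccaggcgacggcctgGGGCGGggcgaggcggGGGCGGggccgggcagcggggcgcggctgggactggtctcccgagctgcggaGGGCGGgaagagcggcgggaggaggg

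The starts of Copa and Ncstn each lie inside the transcribed region of the other gene. Both genes had negative strain differences on their tested probe sets, while the untested dim probe set of Ncstn was higher in B.D(Chr5). The intervals of the tested Ncstn probe set (-0.47 to 0.027) and of the bright Copa probe set (-0.33 to 0.095) include 0. That of the dim Copa probe set (-1.15 to -0.16) does not. A link between the 2 genes was not tested. Igsf8 held 4 GC boxes and Dcaf8 held 2, while Arhgap30 held none of the motifs searched. The table had promoters for 33 of the 38 members, 40 in all. The GC box was in 20 of these 40 (50%), against 32.7% of all 32851 promoters. The E-box CACGTG, to which the product of the member Usf1 binds, was in 2 (5%), those of Igsf9 and Rgs7, against 6.02% of all. The ETS motif was in 1 (2.5%), that of Ncstn, against 2.88%, and the PU.1 motif GAGGAAGT, of a myeloid factor, in 2 (5%), those of Fcgr4 and Kmo, against 2.44%.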

How the data were processed

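RNA was measured on 6 Affymetrix mouse arrays. The deposited values are linear intensity per probe set. The submitters' processing notes name MAS5, whose version is not given in the sources used here. Each array had a trimmed mean of 500 (2% off either end). The table held 45101 probe sets, and 64 controls were left out. Symbols came from the platform annotation, updated by Entrez identifier to RefSeq (GRCm38.p6), with 34945 probe sets having 1 symbol, 932 several and 9160 none. No build comes with the values, so genes were placed by order alone.

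Signals were turned into log2(signal + 16), which understates changes of dim probe sets, and the upper 50% by mean over all arrays were tested in limma 3.58.1 (R 4.3.3, lmFit, eBayes with trend, two-sided), with strain as the only term and a threshold of 0.05 after Benjamini-Hochberg adjustment. Intervals are 95% and unadjusted. Precision is limited by there being 3 arrays a strain; an exact permutation test of 3 against 3 cannot go below 0.1. The fits were tested on simulated data. The members and lists were chosen with earlier results of these data known. Signals on every array are given for members with an unadjusted p under 0.05, for the first and last in order, and for those beside the SLAM and p200 genes; the signals of other members, such as Fcgr3, Fcgr4, B4galt3, Ncstn, Fh1 and Exo1, were added after their values were seen, as was the fit of probe set pairs. Alternatives were pseudocounts of 1 and 64, other filters, quantile normalization, median centring, eBayes without trend, a replicate block, omitting probe sets ending in _x_at or _s_at, and omitting each array.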

Additional observations from a re-analysis of the deposited data

How the results depend on the processing

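The members had 0 calls under every alternative except median centring, which called 1 probe set, that of Arhgap30 (-1.03, limma adjusted p = 0.0394), and the unadjusted threshold, which gave 10 genes. The median size of the member differences stayed between 0.18 and 0.29. Over the array, 41 probe sets were called in the main fit. The count was 67 with median centring, 25 without trend, 21 among the upper 25% by signal and 23 without probe sets ending in _x_at or _s_at. With 1 array left out the count ran from 21 (without B.D(Chr5) replicate 1) to 73 (without B.D(Chr5) replicate 2), with 24 and 23 without C57B/L6 replicate 2 and 3. The 6 called other genes of the interval became 3 without the filter and 3 in the upper 25%, and 3 to 5 with 1 array left out. In the upper 25%, with fewer probe sets tested, the member probe sets without overlap numbered 3, 4, 0 and 0 in the 4 stretches, against 8.70% of all; with 1 array left out they ran from 8 to 13, from 8 to 10, 1 in each case and from 1 to 3. The sign of F11r, at -0.49 to 0.083 with 1 array left out, reversed without B.D(Chr5) replicate 1; the cause was not tested. The deviations of same-numbered samples had correlations of -0.113, -0.204 and 0.197. These cannot settle whether the numbers pair the samples, as there were 3 arrays a strain and the labels state no pairing. Under the replicate block 27 probe sets and 0 member probe sets were called. Dim members limit what can be seen beside the p200 genes.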

Other observations

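Farther toward the end of chromosome 1, the block of 20 tested genes from Parp1 to Disp1 had 12 of 42 probe sets (28.6%) whose strains did not overlap, and 0 passed the limma threshold, while 9 had an unadjusted p under 0.05. It was singled out after its values were seen. Srp9, a subunit of the signal recognition particle, read 2537, 2233 and 2237 in C57B/L6 and 1625, 1876 and 1627 in B.D(Chr5), a log2 difference of -0.45 (SE 0.10). Cnih4, a cargo receptor of vesicle transport, read 2066, 2094 and 2063 against 2682, 2561 and 2597, a difference of 0.33 (SE 0.074). Nvl, of ribosome assembly, had -0.46 (SE 0.11). Sde2 had 0.40 (SE 0.10) on one probe set and -1.17 (SE 0.22) on another, again opposite signs within a gene. The block between, from Exo1 to Itpkb, had 8.33%.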
